A study of Arabidopsis thaliana with 12 samples.

Results

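Whole Arabidopsis thaliana seedlings overexpressing HIN1 (AT3G11290) were compared with wild type seedlings after both had spent 96 h at low water potential. The comparison used the 3 35S:HIN1 stress libraries and the 3 wild type stress libraries, chosen by their genotype and treatment labels, which are 6 of the 12 libraries of the series. Wild type was Col-0, and 35S:HIN1 was 1 stable transgenic line, labelled pEG100 HIN1, in which the gene is driven by the 35S promoter of cauliflower mosaic virus, which is active in most plant cells. Seedlings grew for 7 days on Murashige-Skoog agar without sugar under continuous light. They were then transferred either to -0.7 MPa, set with polyethylene glycol in the agar (stress), or to fresh agar at -0.25 MPa (control). Each of the 4 groups had 3 libraries of poly-A RNA, from 3 independent experiments. The wild type libraries also belong to another submission on ahl10 by the same group. Of 33602 genes in the tables, 22924 had enough reads to be tested. Because there was a single transformed line, an effect of HIN1 and an effect of that line's own insertion or history cannot be told apart, and in whole seedlings fewer cells of a type and less RNA per cell cannot be told apart either.

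Low water potential limits water uptake, and seedlings respond through abscisic acid (ABA). ABA receptors of the PYR/PYL family inhibit clade A protein phosphatases 2C, which frees SnRK2 kinases to activate dehydration genes, and the amino acid proline accumulates as an osmolyte. HIN1 carries a Myb/SANT-like domain and is known to interact with HAI1, one of those phosphatases. Pathogen defence uses other signals, including salicylic acid and N-hydroxypipecolic acid, and is often antagonistic to ABA signalling.

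The stress libraries held 57996104 to 68555138 gene reads each. Across the genes tested, correlations of log2 CPM, the TMM-scaled read counts relative to library size, were 0.9855 to 0.9907 within a genotype and 0.9695 to 0.9775 between genotypes. The first principal component of the 6 libraries held 54.3% of the variance and separated the genotypes, and 35S:HIN1 replicate 3 lay furthest from wild type on it, at 46.9 against 32.61 and 37.85 for the other replicates. The summed level of 105 tested chloroplast-encoded genes ran from 1791 to 5875 CPM in wild type and from 1807 to 4837 CPM in 35S:HIN1, with replicate 3 highest in both genotypes.

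HIN1 itself was read in every library. Its level was 23.58, 24.46 and 22.82 CPM in the 3 wild type stress libraries and 315.5, 344.3 and 390.0 CPM in the 3 35S:HIN1 stress libraries. Every transgenic library was therefore far above every wild type library, as the genotype labels require. The log2 difference was 3.89 ± 0.098 (SE, n = 3 per group; edgeR quasi-likelihood test, Benjamini-Hochberg adjusted p = 2.09e-09), a 14.8-fold higher level, and reads of the transgene and of the native gene are counted together. In the control contrast the log2 difference was 3.55, and the interaction of genotype and water potential was not called for HIN1 (0.34, adjusted p = 0.50). HIN1 lies at chr3:3535561-3537904 (TAIR10.1). Of the 5 annotated genes on either side none that was tested was called, and AT3G11285, AT3G11300, AT3G11310 and AT3G11325 were not tested. Its tested neighbour AT3G11280 had 42.6, 43.8 and 40.0 CPM in wild type and 41.5, 46.8 and 39.1 CPM in 35S:HIN1, so the 2 groups overlapped there.

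At low water potential 785 of the 22924 genes tested passed an adjusted p of 0.05 between the genotypes, which is 3.42%. The difference ran almost entirely one way: 740 genes (3.23% of those tested) were higher in 35S:HIN1 and 45 (0.196%) were lower. A fold of at least 2 was reached by 542 of the higher genes (2.36% of genes tested) and 12 of the lower genes (0.0523%), together 2.42%. The libraries of the genotypes did not overlap for any of the 785, against 16.8% of all genes tested. The median log2 difference was -0.0055 over all genes and 1.63 in absolute size over the called genes, so most transcripts stayed close to equal while a small set differed strongly. Leaving out 1 library at a time gave between 536 calls (without wild type stress replicate 1) and 852 calls (without wild type control replicate 3). The lower calls fell to 23 without wild type stress replicate 1 and to 27 without 35S:HIN1 stress replicate 2.

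**Figure D1:**
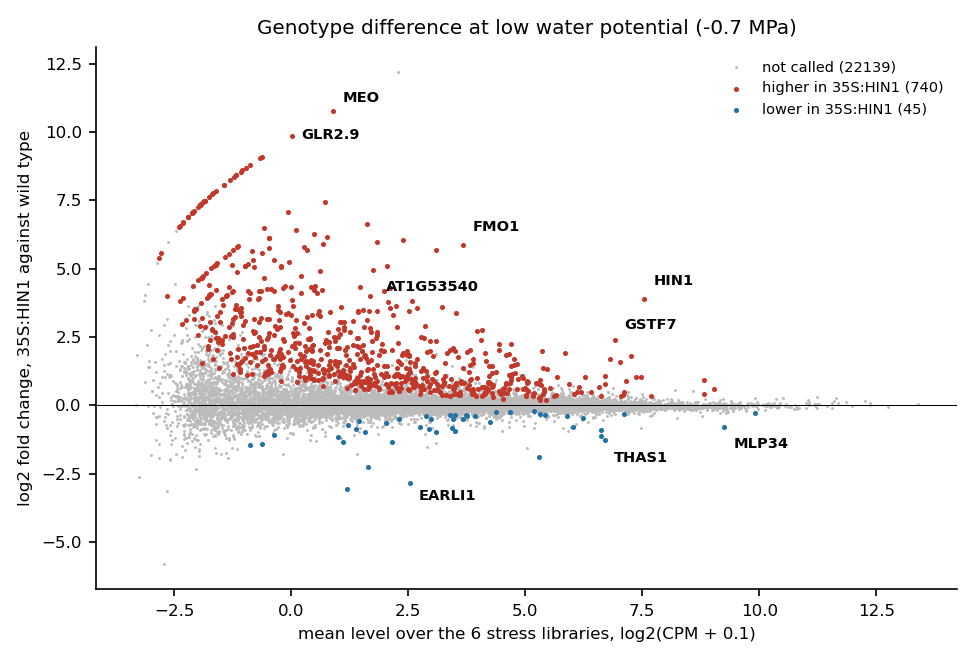
Log2 fold change of each gene tested (35S:HIN1 against wild type, both at -0.7 MPa) by its mean level over the 6 stress libraries, on a log2(CPM + 0.1) axis; red and blue points passed an adjusted p of 0.05. The 740 higher genes far outnumber the 45 lower genes, and the largest fitted values belong to genes near 0 in wild type, such as MEO and GLR2.9, where the fold is no measured size.

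The largest log2 differences on the salicylic acid and pathogen list were those of FMO1 and ALD1, enzymes in the synthesis of N-hydroxypipecolic acid, the mobile signal of systemic acquired resistance. FMO1, the monooxygenase that makes that compound, had 0.241, 0.275 and 0.774 CPM in wild type and 22.9, 23.3 and 28.5 CPM in 35S:HIN1. All 3 transgenic libraries agreed closely, and wild type replicate 3 was the highest of the wild type libraries. The log2 difference was 5.88 ± 0.38 (SE, n = 3 per group; edgeR adjusted p = 4.28e-06), and 6.59 without wild type stress replicate 3. ALD1, the aminotransferase that starts pipecolic acid synthesis, had 0.0284, 0.0162 and 0.0688 CPM in wild type against 2.103, 2.136 and 2.270 CPM. It was close to silent in wild type and rose by 5.80 ± 0.46 on the log2 scale (edgeR adjusted p = 1.69e-05), or 6.46 without wild type stress replicate 3. SARD4 (AT5G52810), the reductase that acts between them, was not called, at 10.1, 8.13 and 9.30 CPM in wild type and 10.1, 9.92 and 11.1 CPM in 35S:HIN1 (log2 difference 0.18, edgeR adjusted p = 0.710).

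Of 22 genes tested on that list 7 rose and none fell, or 31.8% against 3.42% of all genes, with a median log2 difference of 0.80 against -0.0055 over all genes. WRKY54, a transcription factor of the salicylic acid response, had 1.79, 1.67 and 2.05 CPM in wild type and 4.61, 5.15 and 5.55 CPM in 35S:HIN1 (log2 difference 1.48 ± 0.15, edgeR adjusted p = 9.2e-05). The glucosyltransferase UGT76B1, the glutaredoxin GRX480, the transporter EDS5, which exports the salicylic acid precursor from plastids, and the regulator SARD1 rose by 1.19, 2.16, 0.67 and 1.85 on the log2 scale. The pathogenesis-related genes PR1, PR2 and PR5 were tested and not called, and neither were NPR1, NIMIN1, PBS3 and WRKY70. EDS16, EDS1 and PAD4 of the same list gave smaller values that did not pass the test. EDS16 (ICS1), the isochorismate synthase that starts salicylic acid synthesis, had 12.2, 13.9 and 13.7 CPM in wild type and 15.0, 14.5 and 16.0 CPM in 35S:HIN1, with a 95% interval of -0.03 to 0.41 for the log2 difference. EDS1 and PAD4, the lipase-like partners of immune signalling, gave 0.30 (interval 0.10 to 0.50, edgeR adjusted p = 0.144) and 0.32 (interval -0.07 to 0.70, edgeR adjusted p = 0.642).

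Receptor kinases at the cell surface moved in the same direction. Among 39 cysteine-rich receptor-like kinases tested 10 rose and none fell (25.6%), and among 14 wall-associated kinases 6 rose and none fell (42.9%), against 3.42% of all genes. The medians were 0.84 in both families, and 6 and 3 members were called once genes under a mean of 1 CPM were left out. CRK11 had 9.48, 10.2 and 10.2 CPM in wild type and 23.0, 26.3 and 32.8 CPM in 35S:HIN1. The transgenic libraries spread more than the wild type libraries but stayed clear of them (log2 difference 1.46 ± 0.15, edgeR adjusted p = 0.000139). WAKL4 had 0.497, 0.745 and 0.413 CPM in wild type against 8.49, 6.38 and 8.17 CPM, a rise of 3.79 ± 0.27 on the log2 scale (edgeR adjusted p = 8.3e-06). WAK3 and WAKL10 rose by 4.32 each, from levels of at most 0.194 CPM in wild type. Not every member of these families moved: WAK2 had 26.0, 27.2 and 45.0 CPM in wild type and 39.3, 41.2 and 50.8 CPM in 35S:HIN1, an overlap, and WAKL7 gave a log2 difference of 0.17 with an interval of -0.18 to 0.52.

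Of 66 WRKY transcription factors tested 12 rose and none fell, against 3.42% of all genes called, with a median of 0.16. WRKY51 had 0.966, 0.906 and 1.48 CPM in wild type and 4.13, 4.99 and 4.19 CPM in 35S:HIN1 (log2 difference 1.99 ± 0.21, edgeR adjusted p = 0.000146). ABO3 (WRKY63), named for the ABA-oversensitive phenotype of its mutant, rose by 2.36 ± 0.30. WRKY33, the activator of camalexin synthesis, gave 23.4, 29.6 and 30.6 CPM in wild type and 28.2, 40.2 and 62.0 CPM in 35S:HIN1. Those groups overlapped and it was not called, with an interval of -0.52 to 1.81. Among 64 NAC factors 3 rose and none fell, or 4.69%, close to the 3.42% of all genes, and their median was 0.0095. NAC042, one of the 3, was at 1.99, 1.91 and 2.17 CPM against 10.9, 11.4 and 12.2 CPM (log2 difference 2.51 ± 0.20, edgeR adjusted p = 1.67e-05).

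Camalexin, the main indole phytoalexin of Arabidopsis, is made from tryptophan by a chain of cytochromes P450 and a glutathione conjugate. Of 9 pathway genes tested 4 rose and none fell, or 44.4% against 3.42% of all genes, with a median of 1.07. Only 2 were called once genes under a mean of 1 CPM were left out. CYP71A12, which makes indole-3-acetonitrile, had 4.93, 7.62 and 10.1 CPM in wild type and 29.0, 45.1 and 33.6 CPM in 35S:HIN1. The lowest transgenic library was still above the highest wild type library (log2 difference 2.25 ± 0.25, edgeR adjusted p = 0.000214). CYP71A13, the paralogue best known for camalexin, rose by 3.15 ± 0.56 from 0.0284, 0.0647 and 0.292 CPM to 1.08, 1.3 and 0.959 CPM (edgeR adjusted p = 0.00644), and by 4.55 without wild type stress replicate 3. PAD3, the last enzyme of the pathway, was at 5.395, 3.318 and 5.69 CPM against 6.53, 13.4 and 10.3 CPM (log2 difference 1.07 ± 0.26, edgeR adjusted p = 0.043). CYP79B2 and CYP79B3, which supply both camalexin and indole glucosinolates, were not called, with log2 differences of 0.17 (interval -0.05 to 0.39) and 0.21 (interval -0.05 to 0.46).

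Indole glucosinolate genes held 3 rises among 14 tested, or 21.4% against 3.42% of all genes, with a median of 0.16. Leaving out 1 library at a time left 1 to 3 of them called. IGMT2, a methyltransferase of this pathway, had 4.97, 4.03 and 6.91 CPM in wild type and 24.5, 31.54 and 27.96 CPM in 35S:HIN1 (log2 difference 2.4 ± 0.21, edgeR adjusted p = 3.62e-05), and 6.51% of its reads also mapped elsewhere. The other calls were less secure. AT2G44490 (PEN2), the myrosinase that breaks these compounds down, gave 0.35 ± 0.079 (edgeR adjusted p = 0.0299). Without 1 stress library its adjusted p was 0.0631 (35S:HIN1 replicate 2), 0.12 (35S:HIN1 replicate 3), 0.0925, 0.128 and 0.0711 (wild type replicates 1, 2 and 3). CYP81F2 gave 1.51 ± 0.36 (edgeR adjusted p = 0.0387) and 0.0588 to 0.173 without any 1 of 7 libraries, namely the 3 35S:HIN1 control libraries, 35S:HIN1 stress replicates 2 and 3, and wild type stress replicates 1 and 2. None of 17 aliphatic glucosinolate genes was called (median 0.013).

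Glutathione S-transferases of the tau and phi classes, which conjugate glutathione to reactive metabolites and xenobiotics, split in direction. Among 41 tested 8 rose and 1 fell, or 22.0% against 3.42% of all genes, and their median was 0.066. GSTF7 had 38.1, 33.7 and 45.1 CPM in wild type and 171, 240 and 197 CPM in 35S:HIN1, a 5.21-fold difference (log2 2.38 ± 0.13, edgeR adjusted p = 1.64e-06). GSTU3 was low in wild type, at 0.227, 0.146 and 0.310 CPM, and reached 6.17, 8.26 and 9.27 CPM in 35S:HIN1 (log2 difference 5.11 ± 0.36, edgeR adjusted p = 8.3e-06). Both genes had separate genotypes, and so did GSTU10, which rose by 2.03 ± 0.097 on the log2 scale. GSTF6, counted here and in the camalexin list, varied more: 77.9, 34.3 and 93.7 CPM against 181, 274 and 264 CPM (log2 difference 1.8 ± 0.29, edgeR adjusted p = 0.00329). The member that fell was GSTU8, with 88.7, 76.8 and 80.0 CPM in wild type and 48.1, 48.9 and 45.5 CPM in 35S:HIN1 (log2 difference -0.79 ± 0.070, edgeR adjusted p = 3.97e-05).

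**Figure D2:**
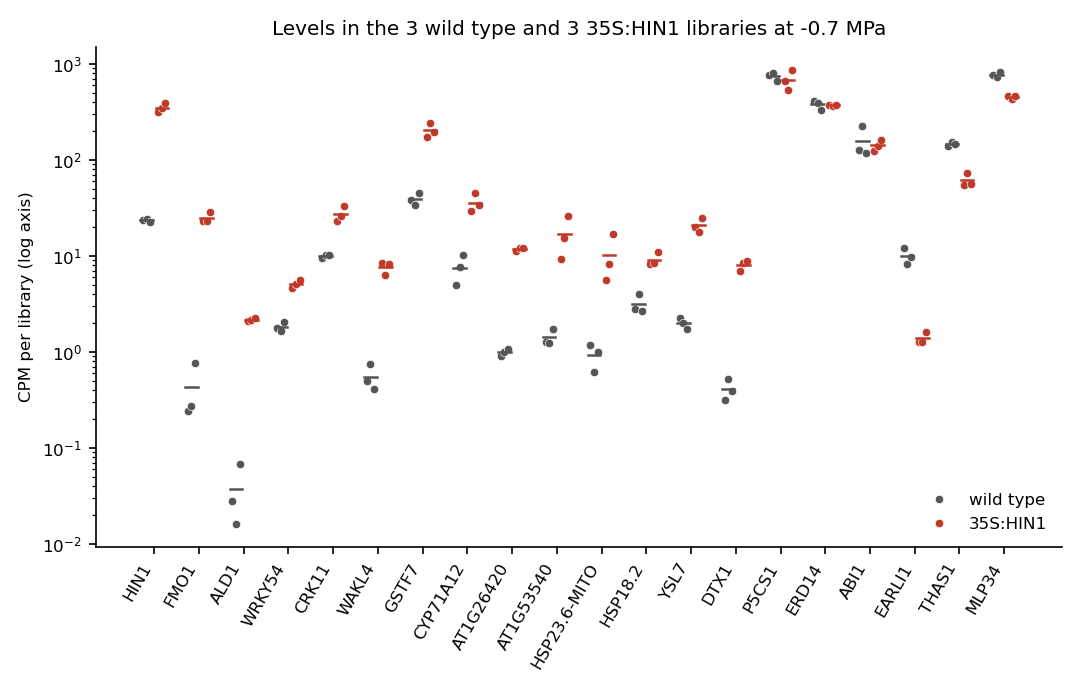
CPM in each of the 3 wild type (grey) and 3 35S:HIN1 (red) libraries at -0.7 MPa for 20 named genes, on a log axis; horizontal bars are group means. HIN1, defence, chaperone and transporter genes separate by genotype, P5CS1, ERD14 and ABI1 overlap, and EARLI1, THAS1 and MLP34 are lower in 35S:HIN1.

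Promoter windows were searched for the W-box core TTGAC, the letters that WRKY factors are known to bind, because 12 WRKY genes rose. Read on both strands, that core occurred at least once in the 250 bases before the annotated start of 62.2% of 738 genes called higher, 37.8% of 45 genes called lower and 45.2% of all 22682 genes with a window. At least 3 copies occurred in 9.76% of the genes called higher and 3.43% of all genes. At a mean of at least 5 CPM the shares with 1 copy or more were 63.2% of 239 genes called higher and 44.5% of 16581 tested. These shares are descriptions of letters, not of binding, and no test was made. The windows of FMO1 and ALD1 hold no copy. Windows of 4 called genes with at least 3 copies are printed from the RefSeq TAIR10.1 assembly, 5′ to 3′ on the gene's own strand, ending at the base before the annotated start, with each copy on either strand in capitals. They lie at chr4:12143859-12144108 (CRK11, minus strand), chr1:9143337-9143586 (AT1G26420, minus), chr1:659981-660230 (GSTF7, minus) and chr1:5532048-5532297 (WAKL4, plus).
CRK11: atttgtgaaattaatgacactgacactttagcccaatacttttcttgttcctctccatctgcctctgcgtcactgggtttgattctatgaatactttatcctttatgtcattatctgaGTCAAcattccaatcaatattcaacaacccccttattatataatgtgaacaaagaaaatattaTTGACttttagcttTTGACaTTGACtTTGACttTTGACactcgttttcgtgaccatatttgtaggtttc
AT1G26420: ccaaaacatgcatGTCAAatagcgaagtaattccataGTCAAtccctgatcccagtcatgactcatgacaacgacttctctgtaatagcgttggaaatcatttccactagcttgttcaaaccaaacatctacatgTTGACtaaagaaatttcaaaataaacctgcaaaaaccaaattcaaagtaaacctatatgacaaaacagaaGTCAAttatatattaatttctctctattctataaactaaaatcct
GSTF7: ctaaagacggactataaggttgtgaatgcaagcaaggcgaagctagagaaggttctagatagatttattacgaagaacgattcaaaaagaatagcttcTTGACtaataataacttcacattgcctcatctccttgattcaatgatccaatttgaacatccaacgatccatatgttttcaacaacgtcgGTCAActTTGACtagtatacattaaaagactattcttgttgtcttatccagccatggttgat
WAKL4: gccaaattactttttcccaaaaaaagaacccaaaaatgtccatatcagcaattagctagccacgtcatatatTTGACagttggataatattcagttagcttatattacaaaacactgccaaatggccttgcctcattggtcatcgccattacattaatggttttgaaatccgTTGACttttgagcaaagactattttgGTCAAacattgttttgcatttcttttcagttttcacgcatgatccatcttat
CRK11 holds 6 copies, 5 of them between positions -69 and -36 counted from the start, AT1G26420 holds 4, and GSTF7 and WAKL4 hold 3 each.

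Small heat shock proteins, chaperones that hold unfolded proteins, also rose, and did so in an uneven way across the transgenic libraries. Of 17 heat shock proteins tested 7 rose and none fell (41.2% against 3.42% of all genes; median 0.82). AT1G53540 (HSP17.6C) had 1.28, 1.23 and 1.74 CPM in wild type and 9.38, 15.4 and 26.3 CPM in 35S:HIN1. Even the lowest transgenic library was well above the highest wild type library (log2 difference 3.59 ± 0.39, edgeR adjusted p = 0.000168). HSP23.6-MITO, a mitochondrial member, had 1.19, 0.615 and 0.998 CPM against 5.59, 8.16 and 17.1 CPM (log2 difference 3.45 ± 0.47, edgeR adjusted p = 0.0011), and HSP18.2 had 2.77, 4.01 and 2.68 CPM against 8.22, 8.40 and 10.9 CPM. For all 7 members that rose, 35S:HIN1 replicate 3 was the highest transgenic library and replicate 1 the lowest. Leaving out 1 library at a time left 6 or 7 of them called. Larger chaperones gave smaller values that were not called: HSP101, the disaggregase, gave 0.37 (interval 0.10 to 0.64) and HSP90.1 gave 0.48 (interval 0.10 to 0.85). None of 19 heat shock factors, the transcription factors of these genes, was called (median 0.062). A heat shock element core, GAANNTTC, lies in the AT1G53540 window at chr1:19980049-19980298 (plus strand), which also overlaps another annotated gene. It is printed with the core in capitals because that gene had the largest log2 difference of the list.
AT1G53540: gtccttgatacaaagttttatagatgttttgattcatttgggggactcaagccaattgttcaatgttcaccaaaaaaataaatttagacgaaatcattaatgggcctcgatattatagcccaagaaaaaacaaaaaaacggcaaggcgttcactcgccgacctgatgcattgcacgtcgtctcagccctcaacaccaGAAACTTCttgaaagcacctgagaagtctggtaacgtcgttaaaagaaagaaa
The core occurred in 9.39% of all windows and 13.4% of those of genes called higher, and was found in 2 of the windows of the 7 heat shock protein genes that rose.

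**Figure D3:**
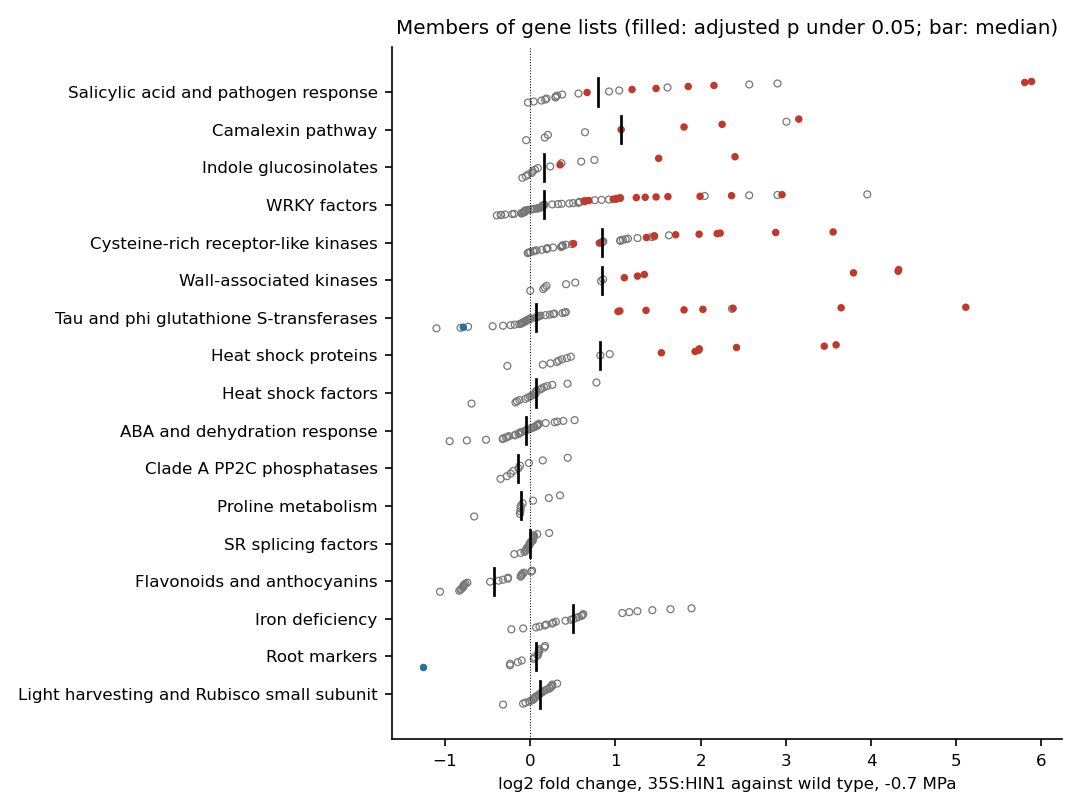
Log2 fold change of every tested member of 17 gene lists (35S:HIN1 against wild type, -0.7 MPa); filled points passed an adjusted p of 0.05, open points did not, and black bars are list medians. Defence, kinase and heat shock protein lists carry most of the filled points. The ABA, phosphatase, proline and splicing factor lists have none, where 3.42% of all genes were called.

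Dehydration genes held no call, but lists of this size would hold few or none at the share called over all genes. None of 30 ABA and dehydration genes tested was called (median -0.051, lowest adjusted p = 0.362 in the edgeR test), and 3.42% of all genes were. ERD14, a dehydrin, had 409.5, 395.7 and 334.6 CPM in wild type and 371.2, 360.8 and 376.1 CPM in 35S:HIN1. The groups overlapped, and the 95% interval of the log2 difference was -0.26 to 0.18. RAB18 (AT5G66400), a classic ABA marker, ranged from 50.9 to 100.3 CPM in wild type and from 25.01 to 67.71 CPM in 35S:HIN1, with an interval of -1.89 to -0.003 and an adjusted p of 0.467 in the edgeR test. RD29B, listed as LTI65, was the most variable: 43.9, 56.65 and 17.77 CPM in wild type against 11.9, 7.95 and 50.9 CPM, so replicate 3 was the lowest wild type library and the highest transgenic library.

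None of 9 clade A phosphatases was called (median -0.14). At the 3.42% of all genes called, most lists of 9 genes would hold no call. HAI1, the partner of HIN1, had 48.3, 47.7 and 30.6 CPM in wild type and 35.6, 27.9 and 41.1 CPM in 35S:HIN1, with an interval of -0.72 to 0.17. Proline genes gave 0 of 9 (median -0.11). P5CS1, the rate-limiting enzyme of proline synthesis, had 757.6, 799.2 and 667.0 CPM in wild type and 657.1, 530.4 and 868.7 CPM in 35S:HIN1, with an interval of -0.51 to 0.28. A difference inside such intervals was not detectable with 3 libraries per group. Of 11 ABA receptor genes PYL3 alone was called (9.09%, against 3.42% of all genes). It was at 0.256, 0.259 and 0.275 CPM in wild type against 0.408, 0.896 and 0.911 CPM (log2 difference 1.48 ± 0.32, edgeR adjusted p = 0.0218). That call did not stand without wild type stress replicate 1, 2 or 3 (edgeR adjusted p = 0.0987, 0.0882 and 0.0719) or without 35S:HIN1 stress replicate 2 or 3 (0.105 and 0.1). SR splicing factors, which set splice sites, gave 0 of 20 called, against 3.42% of all genes. Their log2 differences ran from -0.19 to 0.22, and SR34 had an interval of -0.08 to 0.17.

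Flavonoid and anthocyanin genes had a median of -0.42 over 22 tested, with none called. MYB90, an anthocyanin activator, had 7.84, 11.6 and 9.65 CPM in wild type and 1.68, 7.11 and 5.16 CPM in 35S:HIN1, with an interval of -2.04 to -0.08 and an adjusted p of 0.4 in the edgeR test. The iron deficiency list leaned the other way, with a median of 0.51 over 23 genes and none called. There the 35S:HIN1 libraries differed among themselves: BHLH100 had 1.60, 27.5 and 10.7 CPM in replicates 1, 2 and 3. Light harvesting genes (median 0.11, 22 tested) and cell division genes (median -0.007, 20 tested) held no call. The same held for 13 root hair markers, 13 guard cell markers and 8 seed markers, and for 105 chloroplast and 59 mitochondrial genes. The summed level of the 22 light harvesting genes was 58100 to 62520 CPM in wild type and 62700 to 65260 CPM in 35S:HIN1. The 14 root markers summed to 415.9 to 444.6 CPM in wild type and 329.7 to 386.1 CPM in 35S:HIN1, so the genotypes did not overlap. THAS1, described below, carried that gap. The other 13 root markers summed to 276.2, 290.6 and 278.1 CPM in wild type and 309.0, 313.2 and 273.7 CPM in 35S:HIN1, which overlap. The part of organ proportions in these results was not tested.

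Several transport and metabolic genes were among the largest rises at moderate level. YSL7, a metal chelate transporter of the yellow stripe family, had 2.24, 2.02 and 1.75 CPM in wild type and 20.1, 17.7 and 24.8 CPM in 35S:HIN1 (log2 difference 3.37 ± 0.16, edgeR adjusted p = 4.1e-07). The efflux carrier DTX1 rose by 4.3 ± 0.20, from 0.312, 0.518 and 0.396 CPM to 6.89, 8.35 and 8.87 CPM. SAG13, a senescence-associated dehydrogenase, rose by 2.91 ± 0.36 from 1.59, 0.664 and 2.80 CPM to 10.2, 13.3 and 14.2 CPM. Each of these had separate genotypes, and SAG13 had the widest spread in wild type. NRT2.2, a nitrate transporter, went from 0.0568, 0 and 0 CPM to 1.38, 0.867 and 1.02 CPM. Its fitted log2 difference of 5.58 ± 0.70 became 9.08 without wild type stress replicate 1, the wild type library that held its only reads, so it has no measured size. NRT2.2 was at most 0.0672 CPM outside 35S:HIN1 stress. It had enough reads to be tested through the 35S:HIN1 stress libraries alone, which favours a call in this direction. WR3 (NAR2.1), which NRT2 transporters need as a partner, rose by 0.95 ± 0.13. The largest fold at a mean of 5 CPM or more was that of AT3G42383, an uncharacterized locus annotated as a pseudogene, at 0.227, 0.0971 and 0.120 CPM in wild type and 10.2, 7.56 and 12.8 CPM in 35S:HIN1 (log2 difference 6.05 ± 0.40, edgeR adjusted p = 2.08e-05). AT1G21520, also uncharacterized, rose by 2.77 ± 0.17, and DIN2, a dark-induced beta-glucosidase, by 1.54 ± 0.20.

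Among abundant genes other than HIN1, averaging 100 CPM or more, the rises were smaller. The largest were those of GSTF7 (5.21-fold) and GSTF6 (3.49-fold), whose levels are given above. The chitinase gene AT2G43590 had 84.2, 62.5 and 49.4 CPM in wild type and 181.3, 226.2 and 180.8 CPM in 35S:HIN1, a 3.00-fold difference (log2 1.58 ± 0.18, edgeR adjusted p = 0.00024). AT2G05510, a glycine-rich protein gene, was more variable at 55.0, 38.7 and 64.1 CPM against 153.9, 239.8 and 117.7 CPM (log2 difference 1.70 ± 0.29, edgeR adjusted p = 0.0057). HCHIB, the basic chitinase of the ethylene and defensin list, was less abundant and rose by 0.94 ± 0.093. Its mean was 17.65 CPM in wild type and 33.85 CPM in 35S:HIN1. It was the single call among 12 genes of that list (8.33%, against 3.42% of all genes). AT2G25510, another of the abundant genes, rose by 1.08 ± 0.22 (edgeR adjusted p = 0.0173). Its edgeR adjusted p was 0.0727 without 35S:HIN1 stress replicate 3, and 0.0795 and 0.0822 without wild type stress replicates 1 and 2. Auxin response genes gave 2 calls of 17 (11.8%, against 3.42% of all genes), BRU6 (GH3.2) at 0.55 ± 0.093 and LBD16 at 0.87 ± 0.16. Neither was abundant, with means of 5.47 and 1.79 CPM in wild type and 8.01 and 3.27 CPM in 35S:HIN1. Among 30 XTH wall enzymes XTH11 alone was called (3.33%, close to the 3.42% of all genes), rising by 2.33 ± 0.35 from a mean of 0.547 CPM to 2.76 CPM. None of 18 alpha-expansins was called.

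The 45 lower genes had smaller differences, with a median of -0.71 against 1.71 for the higher genes. EARLI1, a lipid transfer protein, had 12.1, 8.25 and 9.67 CPM in wild type and 1.26, 1.28 and 1.63 CPM in 35S:HIN1, a 7.19-fold lower level. The groups were well apart (log2 difference -2.85 ± 0.30, edgeR adjusted p = 0.000138). MRD1, chosen after its values were seen because it had the lowest log2 difference of all called genes, had 3.78, 4.37 and 3.58 CPM in wild type against 0.957, 0.269 and 0.160 CPM (log2 difference -3.08 ± 0.60, edgeR adjusted p = 0.0118). AT1G67105, a noncoding RNA gene, had 88.0, 68.5 and 27.5 CPM against 14.6, 21.0 and 14.3 CPM, so wild type replicate 3 came close to the transgenic range (log2 difference -1.88 ± 0.32).

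Thalianol is a root triterpene made by a cluster of neighbouring genes on chromosome 5, and 3 adjoining genes of it fell. THAS1, the thalianol synthase, had 139.8, 154.0 and 147.0 CPM in wild type and 54.6, 73.0 and 56.0 CPM in 35S:HIN1 (log2 difference -1.26 ± 0.19, edgeR adjusted p = 0.00192). CYP705A5 and CYP708A2, the cytochromes P450 beside it, fell by 1.12 ± 0.22 and 0.90 ± 0.17 on the log2 scale (edgeR adjusted p = 0.0116 and 0.0108). Without 35S:HIN1 stress replicate 1 or 3 their adjusted p were 0.0565 and 0.062 for CYP705A5 and 0.0527 and 0.0585 for CYP708A2. The adjoining acyltransferase gene AT5G47980 was not called, at 10.2, 11.1 and 9.39 CPM in wild type and 5.54, 6.77 and 4.96 CPM in 35S:HIN1 (log2 difference -0.83, edgeR adjusted p = 0.223). The root markers SCR and SHR, regulators of root radial pattern, gave 0.04 (interval -0.08 to 0.17) and -0.10 (interval -0.26 to 0.06). MLP34, a major latex-like protein, was the most abundant gene with a clear fall, from 759.0, 736.2 and 815.0 CPM to 462.6, 426.4 and 462.0 CPM (log2 difference -0.77 ± 0.11, edgeR adjusted p = 0.00112).

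Some calls of small size rested on the full set of libraries. AT3G16420, which binds the beta-glucosidase PYK10 and had 1113, 1024 and 1041 CPM in wild type and 828.9, 859.4 and 919.0 CPM in 35S:HIN1, fell by 0.29 ± 0.068 on the log2 scale (edgeR adjusted p = 0.0418). That call was lost without any 1 of 8 libraries (adjusted p = 0.0552 to 0.192), namely all 3 wild type stress libraries, all 3 35S:HIN1 control libraries and 35S:HIN1 stress replicates 1 and 2. The vacuolar aquaporin TIP2;2 gave -0.46 ± 0.11 (edgeR adjusted p = 0.0409) and lost its call without any 1 of 9 libraries (0.0517 to 0.175), the exceptions being wild type stress replicate 3 and wild type control replicates 1 and 3. The plasma membrane aquaporin PIP1A gave 0.36 ± 0.080 (0.0299), and 0.108 to 0.143 without wild type stress replicate 1 or 3 or 35S:HIN1 stress replicate 2 or 3. These were the 2 calls among 19 aquaporins (10.5%, against 3.42% of all genes). SVB gave -0.33 and lost its call without wild type stress replicate 1 or 2 or 35S:HIN1 stress replicate 2 or 3 (adjusted p = 0.096 to 0.13). The jasmonate repressor JAZ4, the only call among 25 jasmonate genes (4.0%, against 3.42% of all genes), gave -0.85 ± 0.18 (edgeR adjusted p = 0.0199). Its edgeR adjusted p was 0.0571, 0.0883 and 0.0849 without 35S:HIN1 stress replicate 1 or wild type stress replicates 1 and 2.

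Some called genes sat beside one another in the order of tested genes, which passes over untested genes between them. Of 783 called genes with a place on the nuclear map 188 (24.0%) had a neighbouring tested gene called in the same direction, while 6.67% of all 22671 placed genes had a called neighbour in either direction. Without the genes that passed the filter through 35S:HIN1 stress alone these shares were 20.8% of 703 and 6.06%. Over all called genes, 50 lay in 15 runs of 3 or more. The runs were not recounted without the genes that passed through 35S:HIN1 stress alone, such as AT1G36400 and AT4G19800. The longest runs had 4 genes. On chromosome 1 the berberine bridge enzyme genes AT1G26380, AT1G26390, AT1G26410 and AT1G26420, oxidases that act on indole defence compounds and other substrates, rose by 2.04 to 5.69. AT1G26410 had 0.114, 0.308 and 0.568 CPM in wild type and 15.66, 17.33 and 16.95 CPM in 35S:HIN1 (log2 difference 5.69 ± 0.37, edgeR adjusted p = 4.1e-06), and 6.33 without wild type stress replicate 3. AT1G26420 had 0.909, 1.00 and 1.07 CPM against 11.2, 12.1 and 12.1 CPM, among the tightest sets of replicates of any called gene named here. AT1G26380 lost its call without wild type stress replicate 1 or 2 (edgeR adjusted p = 0.0677 and 0.0601).

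A run on chromosome 4 held 4 chitinase-like genes. ChiC (AT4G19810) had 22.4, 26.7 and 23.1 CPM in wild type and 81.5, 85.1 and 106.9 CPM in 35S:HIN1 (log2 difference 1.92 ± 0.14, edgeR adjusted p = 9.95e-06), and AT4G19820 rose by 1.43 ± 0.16. Their neighbours AT4G19760 and AT4G19800 were near 0 in wild type and at most 1.58 and 0.926 CPM in 35S:HIN1. A further run held WAKL2, WAKL3, WAKL4 and WAKL5. The DUF1262 genes AT1G13510, AT1G13520, AT1G13530 and AT1G13540 formed another, with AT1G13480 nearby at 0.809, 0.647 and 0.877 CPM against 10.7, 11.98 and 10.49 CPM (log2 difference 3.83 ± 0.14, edgeR adjusted p = 7.02e-08). The last run of 4 held uncharacterized loci, AT1G36400, AT1G36622, AT1G36630 and AT1G36640, of which AT1G36400 and AT1G36630 are annotated as pseudogenes. AT1G36400 ends at chr1:13711683 and AT1G36622 starts at chr1:13835620, so these 2 are not close on the chromosome. In it AT1G36400, which had no read in wild type stress and 16.4% of reads shared with other sites, lost its call without 35S:HIN1 stress replicate 1 or 3 (edgeR adjusted p = 0.0656 and 0.0734). The single run of lower genes held the 3 thalianol genes.

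The share of genes called varied with their level in wild type stress, which is itself a side of the comparison. Of 458 tested genes under 0.1 CPM in wild type stress, 168 (36.7%) were called, all higher, and 79 of those had passed the filter on low counts through the 35S:HIN1 stress libraries alone, which makes a difference likely by construction. Genes so low in wild type stress also had almost no room to be called lower, so the direction in that bin was largely set in advance. The share was 8.96% of 1574 genes from 0.1 to 0.5 CPM, 9.95% of 884 from 0.5 to 1 CPM, 5.10% of 3452 from 1 to 5 CPM and 2.09% of 6401 from 5 to 20 CPM. It was 0.758% of 8314 from 20 to 100 CPM and 0.815% of 1841 at 100 CPM and over. Without the 111 genes that passed only through 35S:HIN1 stress, 660 genes were higher and 45 lower of 22813. At a mean of at least 5 CPM, 239 were higher and 31 lower of 16660 (1.62%). The excess of higher genes therefore held at moderate levels, and 95 against 4 of these differed by at least 2-fold.

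**Figure D4:**
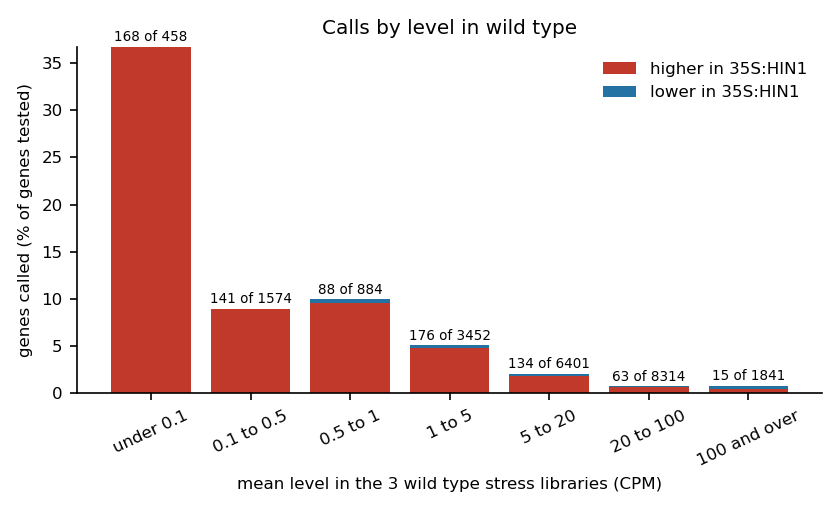
Percent of genes tested that were called higher (red) or lower (blue) in 35S:HIN1 at -0.7 MPa, in bins of mean CPM over the 3 wild type stress libraries, with the number called of the number tested above each bar. The share was 36.7% under 0.1 CPM and 0.815% at 100 CPM and over, where 9 genes were higher and 6 lower. The bins use a side of the comparison itself, so genes near 0 in wild type had almost no room to be called lower.

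Genes were sorted as on or off within the stress libraries only. The rule was under 0.1 CPM in all of one genotype and at least 1 CPM in all of the other. By it 13 of the 22924 genes tested were on in 35S:HIN1 stress and off in wild type stress, and none the reverse. Some of the 13 were read in wild type control, such as AT2G23270 at 2.24, 0.740 and 0.641 CPM and ALD1 at 0.568, 0.758 and 0.247 CPM. MEO (AT2G20160), a SKP1-like subunit of ubiquitin ligases, had no read in wild type stress and 4.19, 2.52 and 3.85 CPM in 35S:HIN1, at least 220-fold higher against a floor of 3 reads over the group. In the control libraries of the transgenic line it had 0.0949, 0 and 0.0336 CPM. It passed the filter on low counts through the 35S:HIN1 stress libraries alone, which favours a call in this direction. GLR2.9, a glutamate receptor-like channel, also had no read in wild type stress and 1.52, 1.93 and 2.05 CPM in 35S:HIN1, at least 114-fold higher. AT5G33431 (a pseudogene), AT2G23270, AT1G34140, AT1G62240 and AT1G64295 had up to 9 reads over the 3 wild type libraries and 376 to 590 reads over the 3 transgenic libraries. Like MEO, AT5G33431 and AT1G64295 passed the filter through 35S:HIN1 stress alone, and so did AT4G16810, another of the 13. Outside 35S:HIN1 stress they reached at most 0.0632, 0.151 and 0.0344 CPM, under the cut of 0.162 CPM. Their place among the 13 is therefore favoured by the filter. Fitted folds for these low genes depend on single reads: without wild type stress replicate 1 the log2 difference moved from 7.44 to 8.21 for AT5G33431, from 6.28 to 7.11 for AT1G34140 and from 5.89 to 5.26 for AT2G23270, which was at 6.51 without wild type stress replicate 3. AT4G19800 of the chitinase run moved from 5.78 to 8.45 without wild type stress replicate 3.

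Reads also appeared in more genes of the transgenic stress libraries. They had reads in 25078, 25241 and 25266 genes, against 24710, 24436 and 24423 in wild type stress and 24426 to 24507 in 35S:HIN1 control. Genes too low to be tested summed to 143, 161 and 165 CPM in 35S:HIN1 stress, 98.7 to 110.8 CPM in wild type stress and 98.8 to 116.1 CPM in 35S:HIN1 control. Of 264 tested pseudogenes 40 were higher and 2 lower (15.9%), and of the 236 that passed the filter through other groups as well, 15 were higher and 2 lower (7.2%). The summed level of pseudogenes overlapped, at 1530 to 1581 CPM against 1471 to 1563 CPM. Wild type stress replicates 1, 2 and 3 held 68555138, 60904450 and 57996104 gene reads, and the 35S:HIN1 stress replicates held 62618536, 64782398 and 63225936. The part of sequencing depth in the counts of genes with reads was not tested.

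The same genotypes were also compared at -0.25 MPa, in the control libraries. Those entered the same fit, so both comparisons share the filter, the scaling and the estimate of the spread, and they are not independent tests. There 633 genes (2.76%) were called, 501 higher (2.19%) and 132 lower (0.576%). Of the genes higher at low water potential 295 were also higher in the control, which is 39.9% of the stress list and 58.9% of the control list. Only 16 genes were lower in both (35.6% of the 45 and 12.1% of the 132). Genes higher at -0.7 MPa had a median log2 difference of 1.71 there and 0.88 in the control, although the first value is raised by the choice of genes on it. FMO1 and ALD1 were higher in both settings, with control log2 differences of 3.76 and 4.15.

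The interaction of genotype and water potential, which asks whether the genotype difference itself differed, was called for 36 genes (0.157%), all of them also called at low water potential. In 35 of them (0.153% of genes tested) the difference was shifted upward at -0.7 MPa, and in 1 (0.00436%) downward. That count was not stable: it was 23, 13, 23, 19, 20, 12 and 18 without wild type control replicate 2, wild type stress replicates 1, 2 and 3, 35S:HIN1 control replicates 2 and 3 and 35S:HIN1 stress replicate 3, and 238 without wild type control replicate 3. DTX1 had 1.88, 1.43 and 1.56 CPM in wild type control and 3.38, 4.27 and 3.54 CPM in 35S:HIN1 control. With its stress levels given above, its genotype difference was 1.2 in the control and 4.3 under stress (interaction 3.1 ± 0.27, edgeR adjusted p = 0.000687). YSL7 went from 1.14 to 3.37 (interaction adjusted p = 0.00155). AT5G38940, a germin-like cupin gene, and AT1G17960, a threonyl-tRNA synthetase gene, had control differences of 0.15 and -0.16 and stress differences of 1.69 and 1.94. AT1G26420 went from 1.4 to 3.57, and these 5 genes kept their interaction call without any 1 of the 12 libraries.

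CYP71A12 showed a different arrangement of the 4 groups. It had 53.9, 42.3 and 40.7 CPM in wild type control and 49.8, 38.6 and 34.9 CPM in 35S:HIN1 control, with overlapping genotypes. At low water potential wild type was at 4.93 to 10.1 CPM, while 35S:HIN1 was at 29.0 to 45.1 CPM. Its interaction was 2.4 (edgeR adjusted p = 0.0177), and the adjusted p was 0.0644, 0.0727 and 0.0529 without 35S:HIN1 control replicates 2 and 3 and wild type stress replicate 2. This arrangement was not particular to CYP71A12. PXMT1, also called in the interaction, had genotype differences of -0.07 in the control and 1.85 under stress. Of the 36 interaction genes 18 were also called in the control. BAM5, a beta-amylase, was the single gene with a negative interaction and with opposite calls. It had 0.489, 0.775 and 0.641 CPM in wild type control against 1.296, 1.131 and 1.544 CPM in 35S:HIN1 control, and 11.7, 9.39 and 12.6 CPM against 4.75, 5.86 and 6.36 CPM under stress. The genotype difference was 1.06 in the control and -0.99 at low water potential (interaction -2.05, edgeR adjusted p = 0.0119), with an interaction adjusted p of 0.0509 without wild type stress replicate 1.

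**Figure D5:**
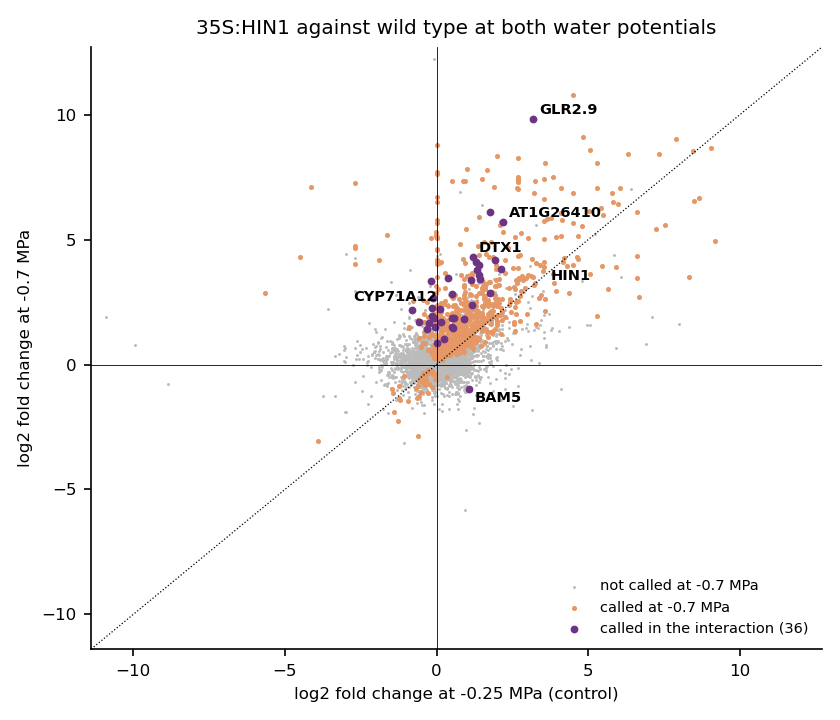
Log2 fold change of 35S:HIN1 against wild type at -0.7 MPa (vertical) by that at -0.25 MPa (horizontal) for each gene tested; orange points were called at -0.7 MPa, purple points in the interaction, and the dotted line marks equal values. Of the 36 interaction genes 35 lie above the line, and BAM5 lies below it with opposite signs on the axes.

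The authors' deposited table for these groups lists 1115 genes with an adjusted p under 0.05, 977 higher and 138 lower. Of the 785 genes called here 738 are among them with the same sign, which is 94.0% of the calls here and 66.2% of those in the authors' deposited table. The authors' deposited table gives 3.36 ± 0.076 (SE) for HIN1 and 109 genes of at least 2-fold, so its fold changes are smaller than those fitted here. Whether those fold changes were moderated is not given in the sources used here, so the sizes are not compared further.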

How the data were processed

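RNA-seq tables of 12 libraries were used, 3 in each of 4 groups of genotype and water potential. Per the submitters' processing notes, CASAVA, bcl2fastq 1.8.4, Trimmomatic 0.35, Bowtie2, DESeq2 and the TAIR10 build were used; for the read counter, the annotation release and the handling of strand, details were not given in the sources used here, so overlapping and antisense genes may share reads. The deposited gene tables hold expected counts, fractional in genes with reads at several sites (4.09 to 4.56% of genes), the authors' RPKM and the fraction of multi-mapped reads. The deposited comparison tables hold log2 fold changes, p-values, a baseMean signal (the authors' mean normalized level), a Wald score and a standard error.

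Expected counts were rounded to whole numbers. Genes were kept by filterByExpr (minimum count 10), TMM-scaled, and tested with edgeR 4.0.16 quasi-likelihood F-tests in 1 fit of all 12 libraries, in R 4.3.3. P-values were adjusted by Benjamini-Hochberg over all 22924 genes, with calls at an adjusted p of 0.05 and no fold threshold. The code was tested on simulated data. Levels are CPM, which do not correct for length and are not compared between genes. P-values rest on the spread of libraries within groups, estimated over all 4 groups and shared across genes. Low counts limit precision for genes near 0. RefSeq TAIR10.1 gave names for 32835 loci, coordinates and promoter letters.

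Members and gene lists were chosen with earlier results of these data known. Named genes were HIN1, the 10 highest and 10 lowest called genes at a mean of at least 5 CPM, the 5 highest and 5 lowest at 100 CPM, up to 3 called members per list (or the most abundant member of a list with none), up to 8 on or off genes, the longest runs of neighbours and up to 5 interaction genes. Other names were chosen after their values were seen. Alternatives were RLE scaling, other low-count filters, the 6 stress libraries alone, DESeq2 1.42.0, a replicate block, removal of genes with over 10% shared reads and leaving out each library. A filter at a mean of 1 CPM was added after seeing the data.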

Additional observations from a re-analysis of the deposited data

Results flagged for a closer look

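For 14 named genes the difference between 35S:HIN1 and wild type itself differed between -0.7 and -0.25 MPa, by the interaction term of the edgeR fit (Benjamini-Hochberg adjusted over all genes tested). On the log2 scale the interaction was 2.17 for AT1G26420, 3.1 for DTX1 and 1.54 for AT5G38940 (adjusted p = 0.000687 for each). It was 2.23 for YSL7 (adjusted p = 0.00155), 2.1 for AT1G17960 (0.00268) and 1.70 for AT1G13480 (0.00485). These 6 kept their call without any 1 of the 12 libraries. AT4G19820 at 1.74 (0.0113), AT1G26410 at 3.5 (0.0119) and BAM5 at -2.05 (0.0119) each lost it without 1 library, and CYP71A12 at 2.4 (0.0177) without any 1 of 3. WAKL4 at 2.46 (0.0194) lost it without any 1 of 6 libraries and GSTF7 at 1.2 (0.024) without any 1 of 8. AT1G26390 at 2.83 (0.0374) and GLR2.9 at 6.67 (0.045) lost it without any 1 of 11. The value for GLR2.9 has no measured size, because it had no read in wild type stress. Groups of 3 libraries were too small for a check of single outlying libraries.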

How the results depend on the processing

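None of the 96 called log2 differences reported or named by rule changed sign under any alternative run. Of 20 that were not called, 10 changed sign under at least 1, among them ABI1 (-0.14, and 0.21 without wild type stress replicate 2), P5CS1 (-0.11, and 0.04 without 35S:HIN1 stress replicate 2) and ERD14 (-0.04, and 0.02 without wild type stress replicate 1). Depth limits genes near 0 most. Requiring 1 CPM in 3 libraries left 369 genes of at least 2-fold, and the added filter at a mean of 1 CPM left 496 calls, 462 of them higher and 289 of at least 2-fold; both filters test fewer genes. DESeq2 called 1054 genes, 945 higher and 109 lower, and 214 in the interaction; the cause was not tested. RLE scaling gave 779 calls, no filter 783, the 6 stress libraries alone 763 (with no value for the interaction) and removal of genes with shared reads 778. Leaving out 1 library gave 536 to 852 calls, 513 to 787 higher, 23 to 65 lower, 418 to 565 of at least 2-fold, 12 to 238 in the interaction and a HIN1 log2 difference of 3.80 to 3.96. No label used here says that a number marks a shared experiment, and the numbers did not pair the stress libraries by the rule of a correlation over 0.1 in every pair: same-numbered libraries of the genotypes correlated at 0.008, 0.114 and 0.195, and wild type replicate 1 correlated best with 35S:HIN1 replicate 2. Both replicate 3 libraries lay apart on the second principal component, at -29.36 and -28.63 against 1.5 to 21.99 for the other 4. Replicate 3 also had the highest share of chloroplast reads in each group. That share was 0.408% in wild type control, 0.589% in wild type stress, 0.75% in 35S:HIN1 control and 0.479% in 35S:HIN1 stress. The rule therefore does not exclude a feature common to the replicate 3 libraries. With a replicate block 725 genes were called, 678 higher and 47 lower, 494 of at least 2-fold and 27 in the interaction, and HIN1 was at 3.89. With the block the adjusted p was 0.0573 for AT3G16420, 0.0538 for PYL3, 0.0891 for CYP81F2, 0.0822 for TIP2;2 and 0.0986 for AT1G36400. In the interaction it was 0.077 for GSTF7, 0.0605 for CYP71A12 and for WAKL4, and 0.137 for GLR2.9. No other call of a named gene was lost with it. With the filter at a mean of 1 CPM, 6 cysteine-rich kinases, 3 wall-associated kinases and 2 camalexin genes were called.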

Other observations

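AT5G15948 had the highest fitted log2 difference of all genes tested but was not called. It was at 28.5 CPM in 35S:HIN1 stress replicate 3 and listed at 0 in the other 5 stress libraries. It also stood at 25.2 CPM in wild type control replicate 1 and 23.7 CPM in 35S:HIN1 control replicate 2, and at 0 in the other 4 control libraries. WRKY33 was at 235.8 CPM in wild type control replicate 1, against 32.8 and 78.2 CPM in the other wild type control libraries.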
